A study of Mus musculus with 4 samples.

Results

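MYCN is a transcription factor of the MYC family. It pairs with MAX through its basic helix-loop-helix leucine zipper, and the dimer binds the E-box, a short palindromic motif whose canonical form is CACGTG. MYC proteins are best known for binding close to the starts of genes for ribosome production, metabolism and the cell cycle. The regions described here are the anti-MYCN peaks of mouse liver tumors that the deposited peak table labels as lying upstream of the gene it pairs them with. On assembled chromosomes, 724 distinct intervals carried that label, out of 1527 tumor peaks there (47.4%, 95% exact Clopper-Pearson interval 44.9 to 49.95) and 1617 tumor peaks in all. The tumor list also held 417 peaks labelled downstream of the paired gene and 385 labelled inside it. The label depends only on position, so the choice of members used neither the strength nor the width of a peak.

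Binding was profiled by CUT&RUN, which releases DNA fragments next to an antibody-bound protein with a tethered nuclease. The tumor group came from MYCN+AKT liver tumors and the control group from matched liver labelled non-tumor, with 1 anti-MYCN library and 1 input library, made from sonicated chromatin, in each group. The sources used here do not state the strain, the age, the number of animals or how MYCN and AKT were introduced. A peak list holds no expression values, so the tissue label could not be checked against marker genes. With 1 library a group there were no replicates and no test was made. The intervals below allow for counting error alone, with each peak taken as independent.

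Upstream peaks seldom lay next to the gene they were paired with. The closest were those of Paip1, Mir146b, Relt, Gm6961 and Stc2, and 12 of 703 peaks outside the gene body were at most 1 kb away. The median distance was 34847 bp. Of the 724 peaks, 719 had a paired gene present in the RefSeq table for GRCm38.p6, the build family named for the files, and 658 of the 664 paired names were found there. The 6 other names were 5 LOC entries and Mir297c.

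Sequence was available for the promoter windows of genes, which run from 250 bases before a RefSeq start to 50 bases after it, and for mature miRNAs. The windows of the 4 genes with a tabulated start within 500 bp of the peak are shown because they are the promoters closest to a peak. They are read 5′ to 3′ on the strand of the gene, credited to RefSeq on GRCm38.p6, with every match to CANNTG, the general E-box form, in capitals.
Stc2 (chr11:31370012-31370311, minus strand): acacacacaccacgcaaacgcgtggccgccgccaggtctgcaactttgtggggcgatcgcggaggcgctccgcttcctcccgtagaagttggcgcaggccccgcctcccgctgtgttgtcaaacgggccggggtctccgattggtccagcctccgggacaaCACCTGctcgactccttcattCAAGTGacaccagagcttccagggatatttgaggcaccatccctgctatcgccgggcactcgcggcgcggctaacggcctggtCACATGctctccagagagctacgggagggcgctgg
Relt (chr7:100863364-100863663, minus strand): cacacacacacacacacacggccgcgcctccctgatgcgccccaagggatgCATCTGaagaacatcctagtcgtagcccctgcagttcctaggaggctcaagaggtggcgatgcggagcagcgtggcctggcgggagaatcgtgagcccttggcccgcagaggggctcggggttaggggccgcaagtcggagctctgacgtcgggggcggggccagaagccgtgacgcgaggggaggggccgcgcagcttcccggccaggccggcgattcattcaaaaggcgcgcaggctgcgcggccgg
Polr3gl (chr3:96594132-96594431, minus strand): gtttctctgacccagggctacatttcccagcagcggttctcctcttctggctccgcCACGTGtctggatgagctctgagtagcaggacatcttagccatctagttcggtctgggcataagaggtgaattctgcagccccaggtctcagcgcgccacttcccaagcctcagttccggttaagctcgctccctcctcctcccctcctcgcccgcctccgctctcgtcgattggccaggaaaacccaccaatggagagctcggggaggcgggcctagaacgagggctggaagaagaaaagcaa
Paip1, first of 2 windows (chr13:119428350-119428649, plus strand): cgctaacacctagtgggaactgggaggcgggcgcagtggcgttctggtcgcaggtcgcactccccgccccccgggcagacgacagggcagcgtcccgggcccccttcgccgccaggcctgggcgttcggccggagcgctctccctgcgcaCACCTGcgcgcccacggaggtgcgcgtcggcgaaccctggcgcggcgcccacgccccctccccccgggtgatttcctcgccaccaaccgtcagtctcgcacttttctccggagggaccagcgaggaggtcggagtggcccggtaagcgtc
The Stc2 window held 3 matches to CANNTG, at positions -89, -68 and 15 (first base of the motif, with the start base as 0), and none was CACGTG. The Relt window held 1 match at -199, and the first Paip1 window held 1 at -100. The Polr3gl window held 1 match at -194, which was CACGTG.

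A promoter window was available for 495 of the 658 paired genes found in RefSeq. Peaks of genes without a window, such as Mir146b and Gm6961, could not be assessed for overlap. Among upstream peaks whose paired gene had a window, those of Stc2 and Relt were the only 2 that reached into one. They are shown again here as the stretch that the peak covered, since this is the only sequence of the peaks themselves that could be read. Capitals mark an unbroken run of alternating A and C.
Stc2 overlap (chr11:31370295-31370311): ACACACACACcacgcaa
Relt overlap (chr7:100863641-100863663): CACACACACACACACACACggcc
The Stc2 overlap was 17 bases with a run of 10, and the Relt overlap was 23 bases with a run of 19. Both runs begin at the first base of the window, so they may be longer in the genome. The peaks are 196 and 214 bp wide, so most of each was not read. Neither overlap held a CANNTG match. The run lengths were noted after the sequences were read. Of 32851 promoter windows of 300 bases, 1.74% held an alternating run of A and C, or of G and T, of at least 10 bases, and 0.292% held one of at least 19 bases. These shares count a run anywhere in a whole window and not in a short overlap.

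Mature miRNAs are shown for genes that the upstream peaks pair with, to identify the products of the nearest and best known ones. Capitals mark the seed, bases 2 to 8, which pairs with target messages.
mmu-miR-146b-5p: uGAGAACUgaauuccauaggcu
mmu-miR-146b-3p: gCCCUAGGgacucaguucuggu
mmu-miR-5620-5p: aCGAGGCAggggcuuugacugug
mmu-miR-29b-3p: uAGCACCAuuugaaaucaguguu
mmu-miR-218-5p: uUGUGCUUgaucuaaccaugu
mmu-miR-99a-5p: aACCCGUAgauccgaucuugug
Leaving out Mir297c, which was not found in RefSeq, 23 upstream peaks were paired with 23 miRNA genes. For 20 of these genes, 27 mature sequences were read from the RefSeq miRNA table. All 27 seeds differed, so no seed family was shared between the genes.

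The 12 nearest peaks fell next to genes of several kinds. The strength of a peak is given as the −log10 of its q-value against input, computed by the authors' peak caller, where a larger number means a stronger excess of reads. Paip1, which encodes a partner of poly(A)-binding protein in translation initiation, had a peak 35 bp before the gene span at chr13:119428172-119428296, with a −log10 q of 11.6. The nearest start in the promoter table for Paip1 was 304 bp from the peak. Stc2, the gene of the secreted hormone stanniocalcin 2, had the strongest of the 12, with a −log10 q of 116 at chr11:31370295-31370490, 234 bp before the start. Polr3gl, which encodes a subunit of RNA polymerase III, had a peak of −log10 q 10.6 at chr3:96594537-96594857, 356 bp before the start.

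Relt, a receptor of the tumor necrosis factor family, had a peak of −log10 q 8.40 at chr7:100863641-100863854, 152 bp before the gene. Siglecg, an inhibitory sialic acid receptor of B cells, had one of 1.98 at 610 bp. Gdf2, which encodes the ligand BMP9, had one of 1.30 at 891 bp, the lowest value in the list. The Stc2 peak therefore stood well above those of the other coding genes in this group, and those of Siglecg and Gdf2 were near the lowest value that the list holds. St8sia1, a sialyltransferase gene, had a peak 495 bp before the gene span with a −log10 q of 5.54. The only start of St8sia1 in the promoter table was 25571 bp from that peak, so its closeness depends on which start is taken. Tmem229a, which encodes a transmembrane protein, had a peak of 4.84 at 744 bp. The remaining nearest genes were Gm6961 with a peak of 4.33 at 158 bp, A530032D15Rik with 1.72 at 574 bp, and the 2 miRNA genes Mir146b and Mir5620.

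**Figure D1:**
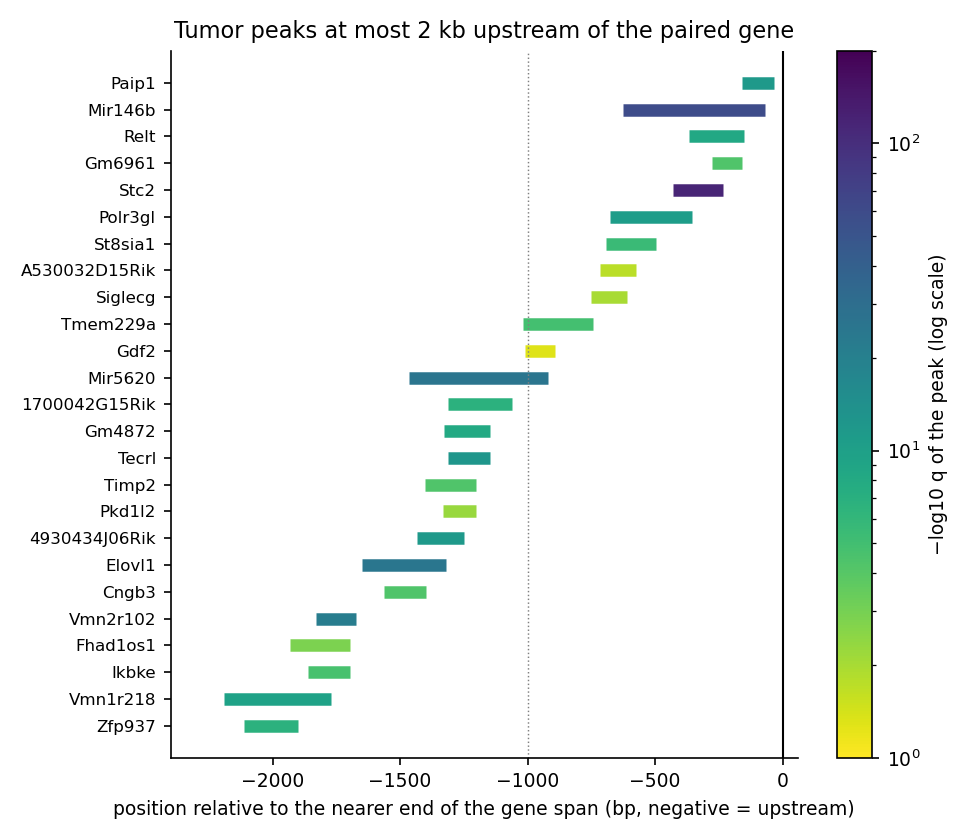
Position of the 25 upstream tumor peaks at most 2 kb from the paired gene, drawn to scale in bp from the nearer end of the gene span, with colour for −log10 q on a log scale and a dotted line at 1 kb. The Stc2 and Mir146b bars are the darkest, at 116 and 59.9, while 12 of the 25 peaks have their near edge within 1 kb.

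Another 13 peaks lay between 1 and 2 kb from the gene. Those of Elovl1, Vmn2r102 and Tecrl are named here, chosen after their values were seen. That of Elovl1, which encodes a fatty acid elongase, had a −log10 q of 24.8 at 1320 bp from the gene. Vmn2r102, a vomeronasal receptor gene, had a peak of 21.6 at 1672 bp. Tecrl, which encodes a relative of trans-2-enoyl-CoA reductase, had a peak of 12.3 at 1146 bp.

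Of the 703 peaks outside the RefSeq span of the paired gene, the nearest was 35 bp away and the farthest was 1436319 bp away, the latter paired with the lncRNA gene Gm32810. The quartiles were 13246 and 115606 bp. The strand was known for 543 of these peaks, and all 543 lay before the start of the gene, the side that the label names.

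At most 1 kb from the gene were 1.71% of the upstream peaks (12 of 703, interval 0.885 to 2.96), beside 2.42% of upstream and downstream peaks together. At most 10 kb away were 19.6% (138 of 703, 16.8 to 22.8), beside 19.3% for the 2 classes together. At most 50 kb away were 57.8% (406 of 703), beside 55%. The shares of upstream peaks lay near these pooled shares, but the 703 upstream peaks make up most of the 1115 pooled peaks. Closeness to the pooled shares is therefore partly built in. Downstream peaks alone are given below, with 3.64% at most 1 kb away. Beyond 1 Mb lay 8 peaks (1.14%).

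Downstream peaks had a larger median distance, and the difference was not tested. It was 49391 bp (39126 to 64302) over 412 peaks, against 34847 bp (30106 to 43866) for upstream peaks, and the 2 intervals overlap. Over 100 kb from the gene lay 35.2% of downstream peaks (30.6 to 40.02) and 28.2% of upstream peaks (24.9 to 31.6). At 10 to 50 kb the order was the other way, with 31.6% of downstream and 38.1% of upstream peaks. At most 1 kb away were 15 downstream peaks (3.64%, 2.05 to 5.93).

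**Figure D2:**
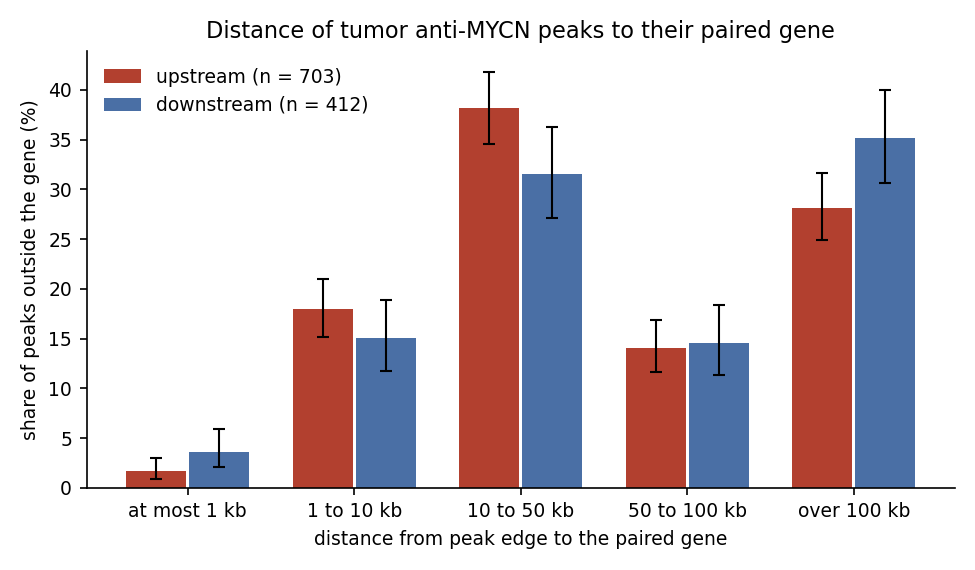
Share of tumor peaks, in percent of the peaks outside the paired gene, in 5 bins of distance from the peak edge to the gene, for 703 upstream and 412 downstream peaks, with 95% exact binomial intervals as bars. Upstream peaks are most frequent at 10 to 50 kb (38.1%), and 1.71% lie at most 1 kb away.

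A label of upstream did not always place the peak outside the gene. In 16 of 719 cases (2.23%, 1.28 to 3.59) the peak lay inside the RefSeq span of the paired gene. These 16 were left out of the distances. The strongest was in Shank2, which encodes a postsynaptic scaffold protein, with a −log10 q of 20.2. The next was in Ppargc1a, which encodes the coactivator PGC-1α of mitochondrial and gluconeogenic genes, with 9.49 at chr5:51744350-51744850, and 176625 bp before its tabulated start. Robo2, an axon guidance receptor gene, held 3, with values of 1.996, 3.27 and 3.52.

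The paired gene was often not the nearest one. In 231 of the 703 peaks outside the gene (32.9%, 29.4 to 36.5) another protein-coding gene lay nearer, as was so for 121 of 412 downstream peaks (29.4%, 25.01 to 34.0), and these intervals overlap. With every annotated gene as a neighbour, 544 of 703 (77.4%) had a nearer one. The span of another annotated gene of any kind held 211 of 719 upstream peaks (29.3%, 26.0 to 32.8), and that of another coding gene held 128 (17.8%). The pairing is used below as the authors made it, and a peak next to a gene is not shown to act on it.

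Of the 10 strongest upstream peaks 8 lay over 10 kb from the gene, as did 80.4% of all 703 (565 peaks). The highest −log10 q was 3201.75, at chr12:3109889-3110113, 125678 bp from the lncRNA gene Rab10os. Next was 771 at chr4:154946885-154947197, 13429 bp from Hes5, which encodes a Notch-responsive repressor of the helix-loop-helix class. Fam172a followed with 689 at a distance of 269623 bp, where the peak lay in the body of 2210408I21Rik. The peak paired with Afap1l2, an actin filament associated gene, had 597 at 84855 bp and lay in the body of Ablim1.

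Kcnj5, which encodes an inward rectifier potassium channel, had a peak of 573 at 9988 bp that was also the widest of all upstream peaks, at 2008 bp. Onecut3, a homeodomain factor gene, had a peak of 519 at 30388 bp, but Tcf3 lay slightly nearer, at 30320 bp. Ctxn2 had a peak of 411 at 2520 bp, the shortest distance among the 10 strongest. The other 3 of the 10 were paired with the vomeronasal receptor gene Vmn1r2 (372 at 81626 bp), the pseudogene 4632415L05Rik (340 at 27746 bp) and the adenylate cyclase gene Adcy8 (290 at 116924 bp). None of the 10 lay in a cluster, here 3 or more peaks each within 10 kb of the next, and 1, that of 4632415L05Rik, overlapped a non-tumor peak.

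Strength and distance showed little relation. Spearman's rho between distance and −log10 q over the 703 peaks was 0.0341, a description across peaks of 1 library. The median −log10 q was 5.48 at 1 to 10 kb and 5.54 in each of the 3 farther bins. At most 1 kb from the gene it was 6.97, from 12 peaks, 5 of them at 10 or above. Width went with strength, with a rho of 0.402 over 724 peaks.

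**Figure D3:**
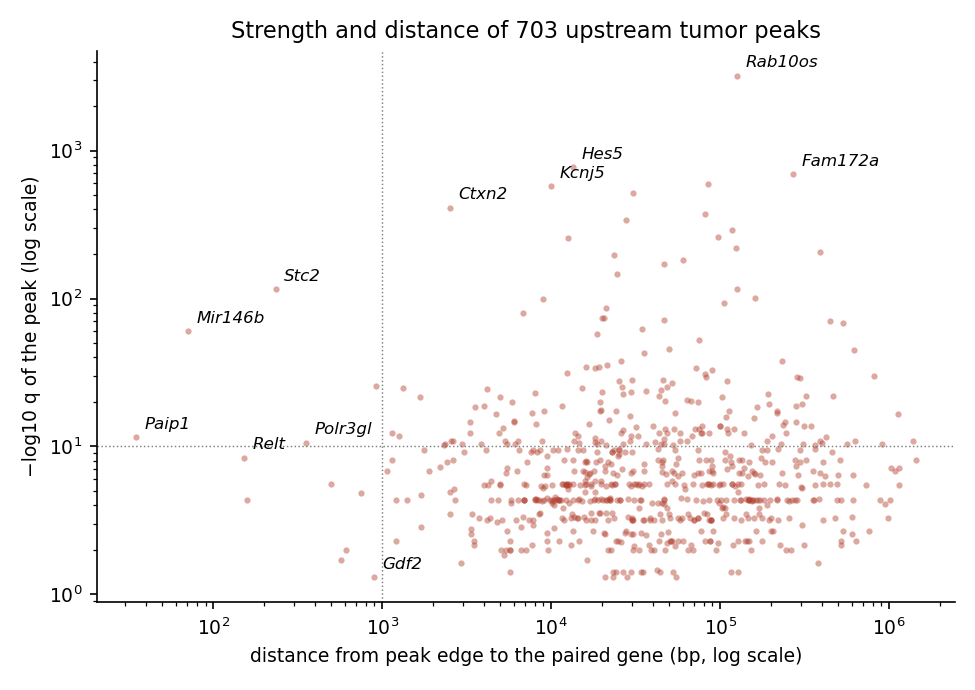
Strength of 703 upstream tumor peaks, as −log10 q on a log scale, against distance from the peak edge to the paired gene in bp on a log scale, 1 point a peak, with dotted lines at 1 kb and at a −log10 q of 10. The strongest point, Rab10os at 3201.75, is 125678 bp from its gene, while Stc2 at 116 is 234 bp from its gene.

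Upstream peaks had a lower median strength and width than downstream peaks. The median −log10 q was 5.54 for upstream peaks (5.48 to 5.61), 6.81 for downstream peaks (6.45 to 7.88) and 5.54 for peaks inside genes (5.37 to 6.001). The median width was 177 bp (171 to 187) upstream, 201 bp (189 to 221) downstream and 180 bp (171 to 190) inside. Values of at least 10 were held by 26.4% of upstream peaks (191 of 724, 23.2 to 29.8), 33.8% of downstream peaks (29.3 to 38.6) and 23.4% of inside peaks (19.2 to 27.9), beside 27.7% of all tumor peaks. The median intervals of upstream and downstream peaks did not overlap, while those of upstream and inside peaks did. Downstream peaks were more often in clusters (7.91%, beside 1.24% of upstream peaks). They also started more often below 3.2 Mb on a chromosome (5.76%, beside 1.66%). The contrast between the classes without such peaks was not tested.

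A few values took up much of the list. The single value 4.33 was held by 69 upstream peaks (9.53%), and 431 (59.5%) had a value shared by at least 10 tumor peaks. Values of 100 or more were reached by 21 upstream peaks (2.90%), and 9 of the 50 strongest tumor peaks were upstream ones (18%, 8.58 to 31.4), beside 47.4% of all tumor peaks. Of the same 50, 36 were downstream ones, counted with clustered peaks included. Upstream peaks covered 166072 bp in all, downstream peaks 127699 bp and inside peaks 87549 bp.

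**Figure D4:**
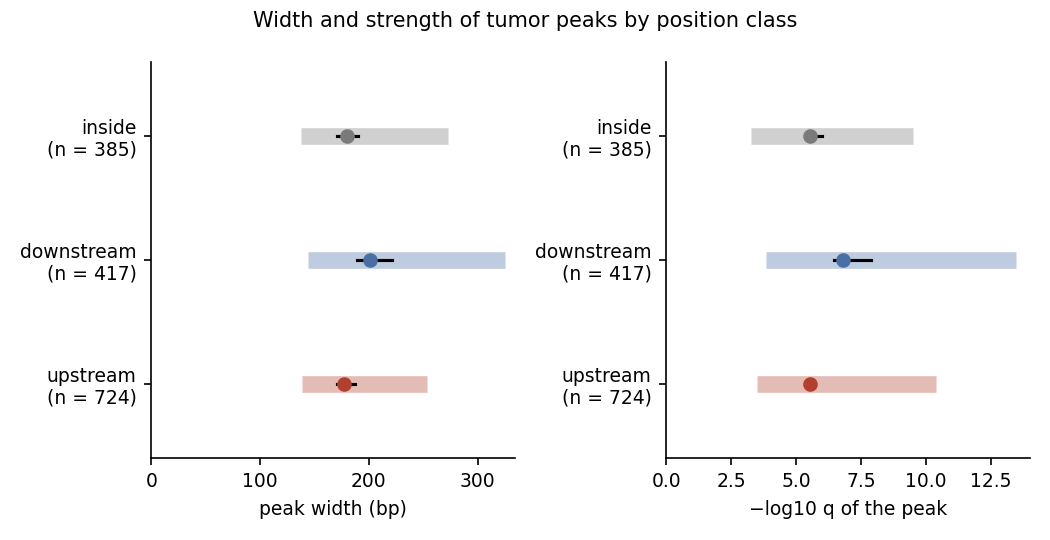
Median (point), 95% interval of the median (black line) and quartiles (pale bar) of peak width in bp and of −log10 q, for 724 upstream, 417 downstream and 385 inside tumor peaks. The downstream medians, 201 bp and 6.81, lie to the right of the upstream medians, 177 bp and 5.54, whose interval for −log10 q is narrower than its point.

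The kind of paired gene also differed between classes. Counting each gene once, protein-coding genes made up 76.3% of those paired with upstream peaks (502 of 658, 72.9 to 79.5), 65.3% of those paired with downstream peaks (230 of 352, 60.1 to 70.3) and 92.5% of those paired with inside peaks (335 of 362, 89.3 to 95.03). Genes for lncRNAs made up 18.5% upstream (122 of 658, 15.6 to 21.7) and 27.0% downstream (95 of 352, 22.4 to 31.9). Genes for miRNAs made up 3.50% upstream (23 of 658, 2.23 to 5.20) and 6.82% downstream (24 of 352, 4.42 to 9.98), and these intervals overlap. The 23 upstream miRNA genes had 1 peak each, while the 24 downstream ones had 51 peaks, 23 of them paired with Mir101c, which was looked up after the counts were made. The median length of the coding genes, counted once for each peak, was 35455 bp for upstream peaks, 20218 bp for downstream peaks and 114462 bp for inside peaks, and how far gene length or the space around genes sets these shares was not tested.

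Few genes of the pathways for which MYC proteins are known were paired with an upstream peak, as few coding genes were at all. None of 26 genes of the MYC and MAX network, 46 of ribosome biogenesis and the nucleolus, 29 of glycolysis and glutamine metabolism or 17 of the circadian clock had one. Over 19 lists with 551 genes, 29 genes (5.26%) had an upstream peak, beside 2.29% of 21887 protein-coding genes. At that background a count of 0 in 46 genes or fewer is not a result about the list. With an upstream peak at most 50 kb away the counts were 17 of 551 (3.09%) beside 1.43%, and at most 10 kb away 6 of 551 (1.09%) beside 0.489%. The lists were chosen with earlier results of these data known, so their higher shares are not independent of the data. The list with most was that of synaptic adhesion and neuronal genes, at 6 of 41.

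In translation, RNA polymerase III and growth control the paired genes were few. Of 36 translation factors and tRNA synthetases, Paip1 and Tars had upstream peaks, and that of Tars, the threonyl-tRNA synthetase, had a −log10 q of 10.9 at 29328 bp. Of 20 genes of RNA polymerase III, Polr3gl and Gtf3c3 had one, and that of Gtf3c3, a subunit of the TFIIIC complex, had 7.62 at 54684 bp and lay in the body of Pgap1. Of 35 cell cycle and replication genes, Cdkn2b, which encodes the cyclin-dependent kinase inhibitor p15, had a peak of 12.3 at 76523 bp. Of 19 p53 pathway and apoptosis genes, Mdm2, the ubiquitin ligase that limits p53, had a peak of 4.33 at 8060 bp. Only the peaks of Paip1, Polr3gl and Mdm2 among these were within 10 kb.

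In signalling, 2 of 31 AKT, PI3K and mTOR genes had an upstream peak. That of Foxo1, a forkhead factor which AKT phosphorylates, had a −log10 q of 4.33 at 11488 bp. That of Pik3r1, a regulatory subunit of PI3K, had 29.6 at 284498 bp. Of 31 Wnt and Hippo genes, 3 had one. The peak of Tcf7 had 5.83 at 18098 bp, that of Znrf3 had 3.56 at 19411 bp and that of Lef1 had 8.14 at 42970 bp. Tcf7 and Lef1 are the transcription factors that act with β-catenin, and Znrf3 is a ubiquitin ligase that removes Wnt receptors.

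In metabolism, Azin1, the antizyme inhibitor of polyamine synthesis, was the only one of 25 nucleotide and polyamine genes with an upstream peak, at −log10 q 15.1 and 22112 bp. Among 22 one-carbon and serine genes, Mat2a, an S-adenosylmethionine synthetase, had a peak of 2.13 at 30847 bp, and Slc1a4, a neutral amino acid transporter, had one of 10.3 at 46319 bp. Among 33 lipid and cholesterol genes, Dgat2, which makes triglyceride, had a peak of 22.4 at 26586 bp, although Mogat2 was nearer at 9599 bp. Elovl6, a fatty acid elongase, had a peak of 5.54 at 4998 bp. The stronger peaks of these, those of Azin1, Slc1a4 and Dgat2, all lay between 22112 and 46319 bp from the gene.

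Among liver and cell type genes, 2 of 47 genes listed as hepatocyte secreted and metabolic genes had an upstream peak. They were Gdf2, given above, and Arg1, the urea cycle arginase, with a −log10 q of 3.52 at 170407 bp. Membership is that of the list, and the cell type that makes each product was not examined. Of 23 hepatocyte transcription factor genes only Ppargc1a was paired. Of 27 progenitor and oncofetal genes, the surface glycoprotein gene Cd24a had a peak of 7.93 at 16105 bp and the chromatin protein gene Hmga2 had one of 2.29 at 86792 bp. Markers of other cells numbered 2: Reln of 26 cholangiocyte, stellate and endothelial genes, with 2.70 at 90289 bp, and Cd180 of 23 macrophage and lymphocyte genes, with 2.96 at 306483 bp. Apart from those of Gdf2 and Ppargc1a, the upstream peaks of the liver genes named here all lay over 10 kb from the gene.

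The 6 neuronal genes with an upstream peak were Kcnd2, Nrxn3, Kcnip4, Erbb4, Dcc and Robo2. The peak of Kcnd2, a potassium channel gene, had a −log10 q of 3.2 at 6208 bp. Erbb4, a receptor tyrosine kinase gene, had one of 12.3 at 138265 bp, and Dcc, a netrin receptor gene, had one of 4.33 at 520001 bp. The 3 Robo2 peaks lay inside its RefSeq span. Another 10 of the 41 genes had a peak labelled inside the gene.

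By symbol family, the symbols matched as potassium channels had the highest share of the 27 families, with 7 of 98 (7.14%). The family was singled out after the shares were seen. The 7 include Kcnip4, which encodes a channel-interacting protein and not a channel. The nearest peaks of this family were those of Kcna6 with a −log10 q of 4.33 at 4428 bp, Kcnd2, and the calcium-activated channel gene Kcnn4 with 9.50 at 7785 bp. Of 162 symbols matched as homeobox and forkhead genes, 7 (4.32%) had one, with Nkx2-6 nearest at 9414 bp and a −log10 q of 6.41. The match left out other homeobox genes with upstream peaks, such as Onecut3, given above, and En2, with 71.7 at 46575 bp. The share is therefore not that of all homeobox genes. Solute carriers had 11 of 384 (2.86%), led by the glutamate transporter gene Slc1a3 with 7.88 at 2409 bp. Zinc finger proteins had 9 of 493 (1.83%) and olfactory receptors 4 of 1428 (0.280%), beside 2.29% of all coding genes. None of 85 histone, 69 serpin, 114 keratin, 44 collagen or 34 C-type lectin genes had one. At the share of 2.29% a count of 0 in families of these sizes is not a result about them. Of 407 symbols matched as ribosomal proteins, 1 was paired, and that was Rps6ka2, which encodes a kinase and not a ribosomal protein.

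Among the miRNA genes, the peak of Mir146b, whose product restrains NF-κB signalling, had a −log10 q of 59.9 at chr19:46342136-46342691, 71 bp before the hairpin. It also lay in the span of the annotated gene Gm36493. The peak of Mir5620 had 25.5 at 919 bp and lay in the body of Clcn4, 864 bp from a start of that gene. Across the 23 peaks the median distance was 67510 bp and the largest was 449421 bp, with 7 of 23 at most 10 kb away, beside 19.6% of all upstream peaks. A −log10 q of at least 10 was held by 9 of 23, beside 26.4%. The body of a protein-coding gene held 14 of 23, beside 17.8%.

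Other miRNA genes known in the liver or in cancer were farther from their peaks. Mir29b-1, whose product targets collagen messages, had a peak of −log10 q 11.8 at 32784 bp. Mir486 had the strongest of the 23 peaks, at 171 and 46751 bp, and the peak lay in Ank1. Mir218-2 had a peak of 4.15 at 98753 bp, in the body of Slit3, and Mir99a had one of 5.54 at 132514 bp, in the body of its host gene Mir99ahg.

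Most genes had a single upstream peak. Of 664 paired names, 617 had 1 upstream peak, 37 had 2 and 10 had 3 or more. The pseudogene Pisd-ps1 had 5, all within 4316 bp at chr11:3100436-3104751, with values of 34.3 to 198. The protein-coding gene 9230019H11Rik had 4 within 5296 bp on chromosome 10, with values of 2.77 to 14.2. Auts2, a gene of neuronal development, had 4 spread over 452290 bp, from 148253 to 600361 bp away, with values of 2.55 to 7.88. Pisd-ps1 and 9230019H11Rik thus held tight groups of peaks, and Auts2 held scattered ones.

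Some upstream peaks lay beside the start of an assembled chromosome. Below 3.2 Mb there were 12 (1.66%, 0.859 to 2.88), beside 2.36% of all tumor peaks, and 24 of the 803 other tumor peaks (2.99%). The downstream class held 24 such peaks (5.76%) and the inside class 0. The 12 upstream ones were on chromosomes 4, 10, 11 and 12 and were paired with Vmn1r2, 9230019H11Rik, Pisd-ps1 and Rab10os. Their median −log10 q was 34.9, and they included the strongest upstream peak. Without these 12 peaks the median of the upstream peaks was again 5.54.

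Upstream peaks were seldom in clusters or shared with non-tumor liver. Clusters held 9 of 724 (1.24%, 0.570 to 2.35), beside 2.95% of all tumor peaks and 33 of 417 downstream peaks. A non-tumor peak overlapped 2 of 724 by at least 1 bp (0.276%, 0.0335 to 0.994), beside 0.917% of all tumor peaks and 11 of 417 downstream ones. The 2 were those of 4632415L05Rik and Cd180. The non-tumor list held 55 peaks, 26 of them labelled upstream on assembled chromosomes. The depth of the libraries is unknown, so a peak missing from the non-tumor list is not shown to be absent there, and a difference in depth and one in tissue cannot be told apart.

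The upstream share is given for each chromosome, and differences between chromosomes were not tested. It was highest on chromosome 15, at 48 of 73 tumor peaks (65.8%, 53.7 to 76.5), and lowest among the autosomes on chromosome 9, at 32 of 104 (30.8%, 22.1 to 40.6). Chromosome 5 followed chromosome 15 among the autosomes, with 49 of 82 (59.8%, 48.3 to 70.4). The intervals of these 3 chromosomes did not include the share of 47.4% over all chromosomes, and those of the other chromosomes did. The 3 were picked after the shares were seen. With an interval for every chromosome, some can miss 47.4% by counting error alone. Clustered peaks of all classes are included, and shares without them were not computed. Chromosome 1 held the most upstream peaks, at 55. The single upstream peak on Y was paired with both LOC115489302 and LOC115489303, so that 724 intervals fill 725 rows.

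**Figure D5:**
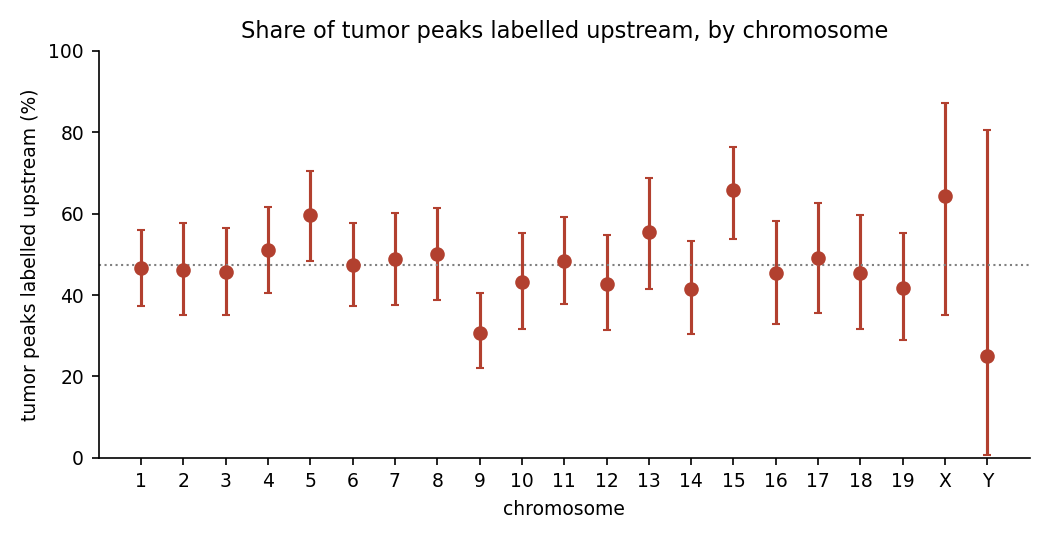
Share of tumor peaks labelled upstream, in percent, on each chromosome, with 95% exact binomial intervals as bars and the share over all chromosomes, 47.4%, as a dotted line. Chromosome 15 (65.8%) and chromosome 5 (59.8%) lie above the line and chromosome 9 (30.8%) below it, with bars that do not cross it.

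The canonical E-box was also counted in the promoters of the paired genes, searching CACGTG, which reads the same on both strands, in every window of a gene. This describes the promoter of the gene and not the peak, which lay elsewhere in all cases but the 2 above. Of 107 coding genes with an upstream peak at most 10 kb away, 89 (83.2%) had a window, and 15 of these 89 (16.9%, 9.75 to 26.3) held CACGTG, beside 8.91% of 17492 coding genes. With only the first listed window of each gene the share was 13.5% (7.17 to 22.4) beside 7.90%, which that interval includes. CANNTG, which includes CACGTG, was held by 68 of 89 (76.4%), beside 72.1%. The median GC content of the windows was 59.3% for the 89 genes and 56.3% for all coding genes, and the mean number of windows was 1.30 and 1.22. CACGTG was found in 7.72% of coding genes with 1 window and 15.3% of those with more. The part of GC content and window number in the E-box share was not tested. For upstream peaks at any distance, CACGTG was held by 52 of 395 coding genes with a window (13.2%, 9.99 to 16.9). Only 395 of 502 coding genes (78.7%) had a window there, so this share is not read as a result.

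The 15 genes were looked up after the count was made. The nearest to its peak was Polr3gl, whose CACGTG is shown above. Hspd1, which encodes the mitochondrial chaperonin HSP60, had a peak of −log10 q 17.4 at 9045 bp. Medag, an adipogenesis gene, had the strongest of the 15 peaks, at 23.0 and 7995 bp. Esr2, which encodes estrogen receptor β, had one of 5.18 at 2653 bp, and Cic, a transcriptional repressor gene, had one of 2.92 at 7855 bp. The other 10 genes, Rasal3, Tmem74b, Lrrc58, Nudt16l1, Ccser2, Kazn, Tmem126b, Kcnn4, Oxtr and Mlph, had peaks between 2511 and 9595 bp away.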

How the data were processed

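Anti-MYCN CUT&RUN was done on 1 tumor and 1 non-tumor liver library, each with an input library. The authors deposited 1 table of peaks for both tissues, with coordinates, width in bp, a paired gene, a position label and a qValue. The deposited qValue column is read here as −log10 q, since its lowest value lies just above the −log10 of 0.05 and its highest cannot be a probability. The submitters' processing notes list the builds GRCm38 and mm10 and the tools MACS2, Bowtie2, HOMER and deepTools, without version or setting. The sources used here state neither the read depth, the duplicate and multi-mapping filters nor the gene models behind the labels.

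Tumor peaks labelled upstream on assembled chromosomes were taken, each interval once. The distance is the number of bp from the nearer peak edge to the nearer end of the RefSeq span of the paired gene (GRCm38.p6). Shares carry exact Clopper-Pearson intervals and medians carry binomial order-statistic intervals, both at 95%. The distance script was checked on 200 planted distances and recovered all 200. Python 3.11.15, pandas 2.3.3, NumPy 2.4.6, SciPy 1.17.1 and matplotlib 3.10.9 were used.

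Genes were named if they were paired with a peak at most 1 kb away, with 1 of the 10 strongest peaks, with 4 or more upstream peaks, or belonged to a gene list. Up to 3 nearest members of each symbol family were also named, and exceptions are marked in the text. The members and the gene lists were chosen with earlier results of these data known. Thresholds, clusters, overlap rules, distances and neighbours were varied, and the E-box content of the peaks was not analysed here because it needs a genome.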

Additional observations from a re-analysis of the deposited data

Results flagged for a closer look

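On an unplaced or unlocalized scaffold, outside the assembled chromosomes that the report covers, 22 tumor peaks carried the upstream label, out of 90 tumor peaks on scaffolds. They drew attention because they lie outside the 724 peaks described above and because no non-tumor scaffold peak had that label. All 22 were on 1 scaffold and were paired with the pseudogene Pisd-ps3. Their −log10 q ran from 31.4 to 2576.59 with a median of 2195, beside a median of 5.54 for the 724 peaks on assembled chromosomes. None overlapped a non-tumor peak. Pisd-ps1, a pseudogene of the same name series, had 5 upstream peaks on chromosome 11.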

How the results depend on the processing

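Under other settings 65 values stayed near the reported one, shares and medians within its interval and counts within 1.5 times, and 16 moved. With only peaks of −log10 q 10 or more there were 191 upstream peaks, with a median width of 260 bp, a median −log10 q of 17.4, 9 listed genes and 65 peaks nearer to another coding gene. With peaks at or above the median of all tumor peaks these values were 375, 214 bp, 10.2, 15 and 117. The share within 1 kb rose to 5.55% when the limit was 3 kb, and to 3.89% when the peaks inside the RefSeq span counted as 0 bp away. Listed genes fell to 17 with a peak within 50 kb and to 6 within 10 kb. With all annotated genes as neighbours 544 peaks had a nearer gene, and CANNTG in place of CACGTG gave 76.4% of promoters. These changes follow from how each setting selects peaks or genes. The contrast in CACGTG was within the interval with the first listed window only, as given above. The settings on RefSeq spans, tabulated starts, annotated neighbours, chromosome starts and promoter windows were chosen after seeing the data. The E-box content of peaks and its alternatives were not run. No paired analysis was possible because there was only 1 library a group, and none could be left out. Read depth is unknown, so no precision can be given for a single peak.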
